A study of Mus musculus with 4 samples.

Results

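Genes of endosome and vesicle traffic were compared between islet effector T cells with low and with high surface CD5 from NOD.Foxp3-GFP mice. NOD is an inbred mouse strain that develops autoimmune diabetes, and the Foxp3-GFP allele marks regulatory T cells with green fluorescent protein. The labels give the age as 6 to 9 weeks, both groups carried the same genotype and no treatment is named. The groups were CD5 low effector T cells and CD5 high effector T cells, with 2 libraries each. The tissue field names islets and spleen together, while the titles name islets. Each group entered the authors' deposited table as 1 combined value per gene, in FPKM, fragments per kilobase of transcript scaled to the mapped fragments of the library. No SD or n can therefore be given for a value, and the depth behind it is unknown. Nothing in the sources used here ties the libraries to separate animals, and the p-values in the table may therefore measure technical spread.

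The genes were chosen by name alone. A tested row was taken when its symbol began with Rab, Vps, Snx, Stx, Vamp, Arl or Chmp in the forms the families use, or was Arf1 to Arf6 or Eea1. This gave 121 of 7252 tested genes, namely 31 Rab, 27 Vps, 15 Snx, 10 Stx, 5 Vamp, 5 Arf, 18 Arl and 9 Chmp genes and Eea1. None of them lacked a test result or shared its row with another gene. RefSeq (GRCm38.p6) names 191 coding genes of these forms, and the other 70 had no tested row and are not analysed here. Every tested gene of the table reached at least 6.82 FPKM in 1 of the groups, and 7 of the 121 genes lay under that level in the other group. These were Arl13b, Rab40c, Snx11, Stx1a and Vps8 in CD5 low and Rab5b and Vps13d in CD5 high. The counts, medians, ranges and spreads of families and smaller sets include them and were not recomputed without these 7 alone.

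Vesicle traffic moves membrane proteins between the cell surface, endosomes, the Golgi apparatus and lysosomes. Rab, Arf and Arl proteins are small GTPases that mark each membrane and recruit effectors. Vps and sorting nexin (Snx) proteins form the coats and tethers that select and receive cargo, Chmp proteins form the ESCRT-III filaments that cut membrane necks, and syntaxins (Stx) and Vamp proteins are the SNAREs that fuse vesicle and target membrane. In T cells this machinery returns internalised antigen receptors to the surface and releases cytotoxic granules at the contact with a target cell. A few names of these forms belong to proteins with other work, such as Vps72, a subunit of chromatin complexes, and Arl6ip4, which acts in splicing. Some Arl names belong to proteins that interact with an Arl GTPase, such as Arl2bp.

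A single gene of the 121 passed the authors' test. Eea1, which encodes a tether of early endosomes that binds Rab5 and the lipid phosphatidylinositol 3-phosphate, rose 2.32-fold, from a level of 17.4 FPKM in CD5 low cells to 40.5 FPKM in CD5 high cells (q = 0.01099 in the authors' deposited table). A gene is said to rise or fall here when the authors' q-value was under 0.05. Of all tested genes 0.758% passed this threshold in either direction and 0.538% as a rise, against 0.826% of the traffic genes, so the share of the group was near that of the table. Eea1 had the 112th largest rise among all tested genes, and its p-value of 5e-05 in the authors' deposited table is the smallest the table holds, shared by 33 genes. Under the Benjamini-Yekutieli adjustment, which 0 of the tested genes pass, the adjusted p of Eea1 was 0.104.

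Eea1 lies on the plus strand of chromosome 10 at 95940663 to 96045518 (mm10). The 250 bases before its start and before the upstream of 2 annotated starts of Vps26a, the traffic gene with the lowest fold change, are shown to place the extremes of the group side by side. Both are from RefSeq's GRCm38.p6 annotation, the Eea1 stretch at chr10:95940413-95940662 on the plus strand and the Vps26a stretch at chr10:62486806-62487055 on the minus strand. Each reads 5′ to 3′, and capitals mark the GC box GGGCGG or its complement and the E-box CACGTG, the core of the element bound by the lysosomal regulator TFEB and by other factors.
Eea1: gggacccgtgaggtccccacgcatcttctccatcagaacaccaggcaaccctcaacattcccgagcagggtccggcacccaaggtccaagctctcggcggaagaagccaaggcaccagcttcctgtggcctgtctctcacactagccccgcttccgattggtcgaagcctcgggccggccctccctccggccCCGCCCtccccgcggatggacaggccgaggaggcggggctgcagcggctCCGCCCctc
Vps26a: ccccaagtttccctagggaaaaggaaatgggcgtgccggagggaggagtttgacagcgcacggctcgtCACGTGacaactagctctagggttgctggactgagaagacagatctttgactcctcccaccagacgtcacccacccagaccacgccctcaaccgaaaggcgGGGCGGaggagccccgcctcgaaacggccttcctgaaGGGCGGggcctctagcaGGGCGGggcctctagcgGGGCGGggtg
The Eea1 stretch holds 2 GC boxes and 0 E-boxes, and the Vps26a stretch holds 4 GC boxes and 1 E-box. The stretch before the other Vps26a start, at chr10:62486599-62486848, overlaps it and holds 3 GC boxes and 2 E-boxes. Over the 93 traffic genes with a promoter in the table, 74.2% had a GC box on either strand in at least 1 start's 250 bases, as did 66.1% of 5808 tested genes and 35.4% of all 27025 genes. The E-box was found for 12 of the 93 (12.9%), against 10.6% of the tested genes and 6.86% of all genes. Those 12 included genes with higher values in CD5 high, such as Arf5 and Rab27a, and with lower ones, such as Vps26a and Arl3. A match describes the letters in this window and not a binding site.

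T cell identity was checked with 8 marker genes, all tested, whose summed level was 3809 FPKM for CD5 low and 4018 FPKM for CD5 high. Cd5 itself, the sorted protein, had 45.4 and 206 FPKM in the authors' deposited table. Markers of other cells moved with the groups. Of 8 macrophage and dendritic cell markers 7 were tested, with a summed level of 939 FPKM for CD5 low and 391 FPKM for CD5 high and Fcer1g listed at 0 in CD5 high. Of the 7, 5 fell (q under 0.05 in the authors' deposited table), while Apoe had 11.9 and 6.65 FPKM and Ctss 133 and 144 FPKM without passing. The 3 tested regulatory T cell markers were higher in CD5 high, and Ctla4 and Ikzf2 rose. Foxp3 had 1.101 and 12.3 FPKM, with q = 0.298 by the authors' deposited table, although both groups are labelled effector T cells. The regulatory markers summed to 150 and 321 FPKM. The 2 proliferation markers, Mki67 and Top2a, both rose (q = 0.01099 and 0.0427 in the authors' deposited table) and summed to 7.35 and 21.3 FPKM. Endocrine markers lay in both directions, with 3 of 4 tested genes higher in CD5 high and a summed level of 301 and 2788 FPKM. Ins1 rose, with levels of 4.003 and 368 FPKM (q = 0.0186 by the authors' deposited table), and Ins2 had 26.7 and 2395 FPKM, while Sst had 263 and 6.86 FPKM. Exocrine markers summed to 913 and 793 FPKM over 7 genes, all with the lower value in CD5 high. Among them Cel fell, with 34.6 and 12.7 FPKM (q = 0.0186 by the authors' deposited table). In the B cell and NK cell lists 1 gene each was tested, Cd79b at 10.96 and 14.01 FPKM and Tyrobp at 21.8 and 3.94 FPKM. The part of these cells in the difference of Eea1 or of any other traffic gene described here was not tested. In bulk values fewer cells of a type and less RNA per cell cannot be told apart.

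Across the group, values in CD5 low and CD5 high lay close together. The median level was 17.9 FPKM for the CD5 low cells and 17.96 FPKM for the CD5 high cells, beside 20.2 and 20.5 FPKM over all tested genes. The log2 fold change had a median of 0.04 and an SD across genes of 0.39, beside -0.01 and 0.54 over all tested genes. CD5 high had the higher value for 66 of 121 genes (54.5%), and for 49.1% of all tested genes. The values differed by over 1.5-fold for 18 traffic genes (14.9%), a share near the 15.0% of all tested genes. Across the 121 genes the log2 levels of the groups correlated with Pearson's r = 0.95, which describes genes within the same libraries.

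**Figure D1:**
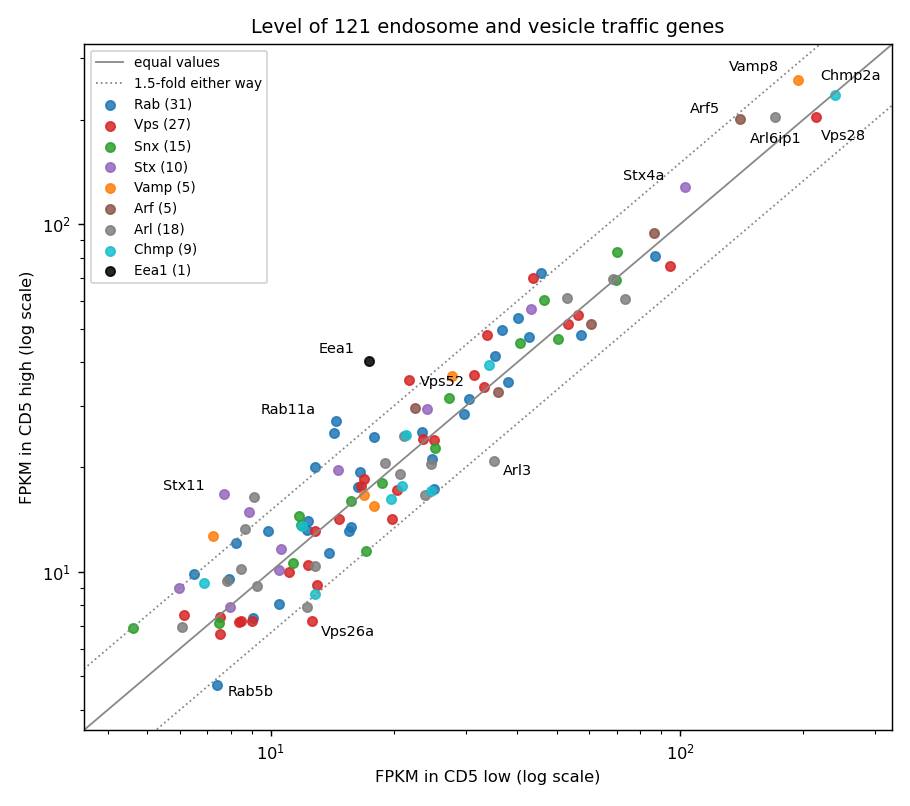
FPKM of the 121 traffic genes in CD5 low (horizontal axis) against CD5 high (vertical axis), both on log scales, coloured by family. Most genes lie between the dotted lines of 1.5-fold difference, and Eea1, at 17.4 and 40.5 FPKM, lies farthest above the line of equal values.

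The most abundant traffic genes had near-equal levels or higher ones in CD5 high. The highest mean level was that of Chmp2a, an ESCRT-III subunit, with 239 FPKM in the CD5 low group and 236 FPKM in the CD5 high group. The R-SNARE gene Vamp8 followed with 194 and 260.4 FPKM, the ESCRT-I gene Vps28 with 214 and 204 FPKM, Arl6ip1, which encodes an ER membrane protein, with 170.3 and 203 FPKM, and Arf5 with 140.4 and 201 FPKM for CD5 low and CD5 high. These 5 genes made up 25.7% of the summed FPKM of the group. Only 6 genes exceeded a mean of 100 FPKM, the last being the plasma membrane syntaxin gene Stx4a, and 65 lay under 20 FPKM. The whole group made up 0.401% of the summed FPKM of the tested genes.

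At an unadjusted p under 0.05, 13 traffic genes differed, or 10.7% of the group, against 10.3% of all tested genes. By direction the share was uneven. Of these, 11 were higher in CD5 high (9.09% of the group, 5.58% of all tested genes) and 2 were lower (1.65% of the group, 4.70% of all tested genes). Whether this balance differs from that of other genes was not tested, and only Eea1 among the 13 passed the adjusted threshold. After Eea1 the largest fold changes among them were those of Stx11, Rab11a and Arl5a, and the lower ones were Vps26a and Arl4a.

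**Figure D2:**
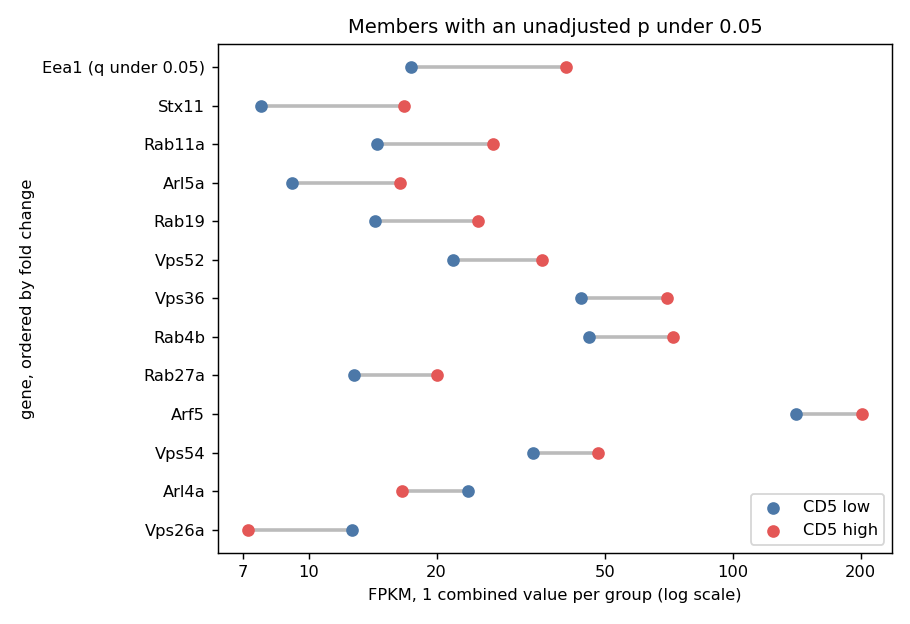
FPKM in CD5 low (blue) and CD5 high (red), on a log axis, of the 13 traffic genes with an unadjusted p under 0.05, ordered by fold change. In 11 genes the red point lies to the right, and in Arl4a and Vps26a it lies to the left.

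No other early endosome gene passed the authors' test. Over the 9 Rabs of early endosomes and fast recycling, 5 had a higher value in CD5 high, with a median log2 fold change of 0.10. Rab5a, one of the GTPases that recruit Eea1, had 12.3 FPKM in the CD5 low group and 13.2 FPKM in the CD5 high group (p = 0.795 in the authors' deposited table). Its paralogs had lower values in CD5 high, with Rab5c at 25.1 and 17.3 FPKM (p = 0.116) and Rab5b at 7.41 and 4.73 FPKM (p = 0.131) in the authors' deposited table. Summed over the 3 paralogs, the Rab5 level was 44.8 FPKM for CD5 low and 35.2 FPKM for CD5 high. Among the other early endosome Rabs, Rab21 had 17.9 and 24.3 FPKM, Rab22a 12.3 and 13.97 FPKM and Rab14, which acts between early endosomes and the Golgi, 57.2 and 47.9 FPKM for CD5 low and CD5 high. Values thus lay in both directions among the Rabs of the compartment that Eea1 marks.

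Among the Rabs of recycling, Rab4b and Rab11a had the larger values in CD5 high. Rab4b, of fast recycling from early endosomes, had 45.9 FPKM in the CD5 low group and 72.4 FPKM in the CD5 high group (1.58-fold, p = 0.0182, q = 0.3598 in the authors' deposited table). Rab11a, which defines recycling endosomes, had 14.5 FPKM in the CD5 low group and 27.1 FPKM in the CD5 high group (1.87-fold, p = 0.00405, q = 0.174 in the authors' deposited table). Their paralogs were nearer to equal. Rab4a had 7.92 and 9.53 FPKM and Rab11b had 29.6 and 28.4 FPKM for CD5 low and CD5 high. Rab35, a further recycling Rab that also acts at the immunological synapse, had 15.5 and 13.1 FPKM (p = 0.473 in the authors' deposited table). Rab8a had 37.97 and 35.1 FPKM, Rab8b 35.3 and 41.7 FPKM and Rab10, which like them serves transport to the surface, 42.8 and 47.4 FPKM.

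Of the Rabs of regulated secretion, Rab27a had the largest difference. Rab27a, which docks cytotoxic granules at the plasma membrane and is mutated in Griscelli syndrome in humans, had 12.8 FPKM in the CD5 low group and 20.03 FPKM in the CD5 high group (1.56-fold, p = 0.0295, q = 0.414 in the authors' deposited table). Rab37, linked to granule and vesicle exocytosis, had 16.6 and 19.3 FPKM, and Rab3a, known from synaptic vesicles, had 8.24 and 12.1 FPKM, with p-values of 0.481 and 0.398 in the authors' deposited table. Over the 8 recycling and exocytosis Rabs tested, 6 had a higher value in CD5 high, with a median log2 fold change of 0.23. Of 4 late endosome Rabs 3 had the higher value in CD5 high. The late endosome GTPase Rab7 had 40.1 and 53.8 FPKM (p = 0.2898 in the authors' deposited table), Rab9 13.9 and 11.3 FPKM, Rab24 30.4 and 31.4 FPKM and Rab12 16.3 and 17.5 FPKM, with a median log2 fold change of 0.07. Of 8 ER and Golgi Rabs, 4 were higher and 4 lower. Rab19, a little-studied Rab, was the highest of these in fold, with 14.3 and 25.1 FPKM (p = 0.0454, q = 0.469 in the authors' deposited table), and Rab2a the most abundant of all Rabs, with 87.00 and 80.7 FPKM.

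The remaining Rabs of the ER and Golgi had no p-value under 0.05. Rab1, of ER to Golgi transport, had 24.8 and 21.1 FPKM and its paralog Rab1b 36.8 and 49.7 FPKM for CD5 low and CD5 high (p = 0.0875 for Rab1b in the authors' deposited table). Rab6a, of transport to and within the Golgi, had 23.4 and 25.3 FPKM, Rab18, of the ER and lipid droplets, 15.8 and 13.4 FPKM, Rab33b 9.04 and 7.35 FPKM and Rab43 9.87 and 13.1 FPKM. Rab1b and Rab43 had the higher value in CD5 high and Rab1, Rab18 and Rab33b the lower one. Outside these roles Rab40c had 6.49 and 9.84 FPKM and Rab28 10.5 and 8.09 FPKM.

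**Figure D3:**
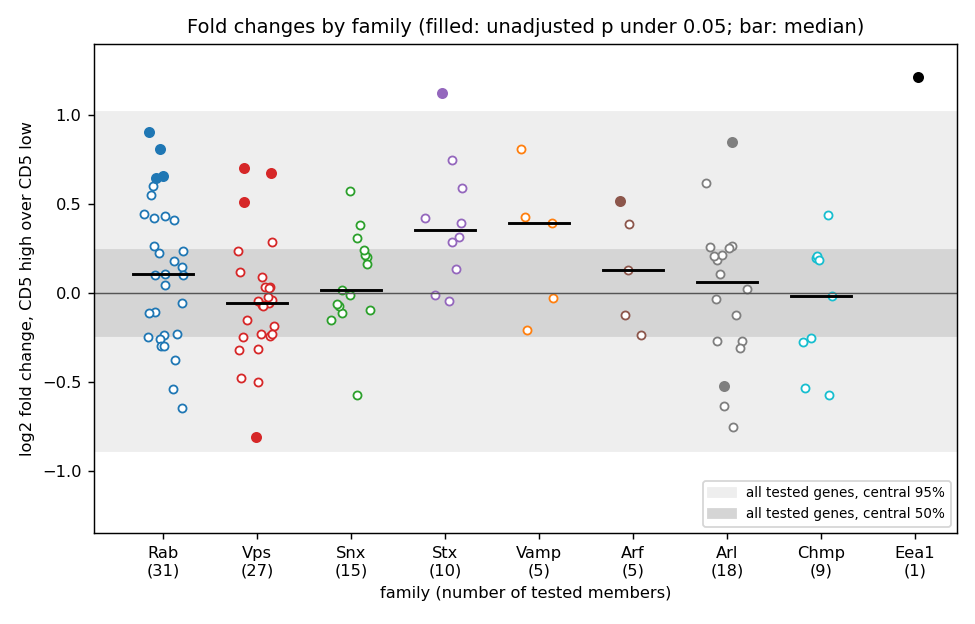
Log2 fold change, CD5 high over CD5 low, of each traffic gene by family, with the family median as a bar, genes with an unadjusted p under 0.05 filled and all tested genes as grey bands, the darker for the central 50% and the paler for most of the rest. Eea1 and Stx11, at 1.22 and 1.12, lie above both bands, and the Stx and Vamp families have the highest medians, 0.36 and 0.40.

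The SNARE families had the highest medians of the 8 families with more than 1 gene. Of the 10 syntaxins 8 had a higher value in CD5 high, with a median log2 fold change of 0.36, and the 5 Vamp genes had a median of 0.40. The 8 include Stx1a, which reached the lowest tested level only in CD5 high. The largest difference was that of Stx11, a syntaxin of cytotoxic granule release whose loss causes familial hemophagocytic lymphohistiocytosis in humans, with 7.71 FPKM in the CD5 low group and 16.8 FPKM in the CD5 high group (2.18-fold, p = 0.00585, q = 0.211 in the authors' deposited table). Syntaxins of the secretory route were higher as well without reaching an unadjusted p of 0.05. Stx18, of transport from the Golgi to the ER, had 8.85 and 14.8 FPKM, Stx5a, of ER to Golgi transport, 43.3 and 56.95 FPKM, and Stx16, of the trans-Golgi network, 14.6 and 19.6 FPKM for CD5 low and CD5 high. Stx4a, of the plasma membrane, had 103 and 128 FPKM (p = 0.144 in the authors' deposited table). Stx6, also of the trans-Golgi network, had 24.04 and 29.3 FPKM, and Stx1a, of neuronal plasma membranes, 5.98 and 8.98 FPKM.

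The endosomal syntaxins lay close to equality. Stx7 had 7.98 and 7.91 FPKM, Stx8 10.6 and 11.6 FPKM and Stx12 10.5 and 10.1 FPKM for CD5 low and CD5 high, with log2 fold changes of -0.01, 0.13 and -0.05. Among the Vamp genes, Vamp8, of endosomal fusion and granule release, had 194 FPKM in the CD5 low group and 260.4 FPKM in the CD5 high group (1.34-fold, p = 0.05005 in the authors' deposited table). Vamp3, of recycling endosomes, had 7.23 and 12.7 FPKM (p = 0.0597 in the authors' deposited table) and Vamp5 27.8 and 36.6 FPKM. Vamp2, the R-SNARE of cytotoxic granule fusion in mouse, had 16.9 and 16.7 FPKM and its paralog Vamp1 17.9 and 15.5 FPKM. Vamp5 and Vamp8 are neighbours on chromosome 6, at 72368049 to 72380468 and 72385221 to 72390667 (mm10). Other SNARE genes and their regulators lay mostly on the other side. Of 17 tested SNARE partners, from a list of 26 such as Snap23, Nsf and the Stxbp genes, 5 had a higher value in CD5 high and 12 a lower one, with a median log2 fold change of -0.20.

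The Vps genes had a median log2 fold change of -0.05, and 17 of 27 had the lower value in CD5 high. Without genes whose mean was below 20 FPKM, the median was 0.03. All 4 tested retromer genes, whose complex returns cargo from endosomes to the Golgi and the surface, were lower in CD5 high. Vps26a, an arrestin-like cargo subunit, had 12.6 FPKM in the CD5 low group and 7.205 FPKM in the CD5 high group (1.75-fold lower, p = 0.0263, q = 0.3997 in the authors' deposited table). Its paralog Vps26b had 9.02 and 7.22 FPKM, the scaffold gene Vps35 11.1 and 9.98 FPKM and Vps29 56.3 and 54.9 FPKM, with p-values of 0.273, 0.651 and 0.901 in the authors' deposited table. The 4 genes shared a direction, only Vps26a had an unadjusted p under 0.05, and none passed the adjusted threshold.

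The GARP complex, which captures endosome-derived vesicles at the trans-Golgi network, held higher values for Vps52 and Vps54. Vps52 had 21.8 FPKM in the CD5 low group and 35.5 FPKM in the CD5 high group (1.63-fold, p = 0.00615, q = 0.215 in the authors' deposited table). Vps54, the subunit that distinguishes GARP from the related EARP complex, had 33.7 FPKM in the CD5 low group and 48.1 FPKM in the CD5 high group (1.43-fold, p = 0.0111, q = 0.302 in the authors' deposited table). The remaining subunits lay nearer to equality, with Vps51 at 12.8 and 13.1 FPKM and Vps53 at 12.4 and 10.5 FPKM. The Vps52 value carries a limit from an overlapping gene. In GENCODE M21 it shares 156 exonic bases with Rps18 on the opposite strand, and Rps18 had levels of 13536 FPKM (CD5 low) and 11791 FPKM (CD5 high) in the authors' deposited table. The log2 fold change of Rps18 was -0.20. The library kit does not mark strand, and whether Rps18 reads entered the Vps52 value was not tested.

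**Figure D4:**
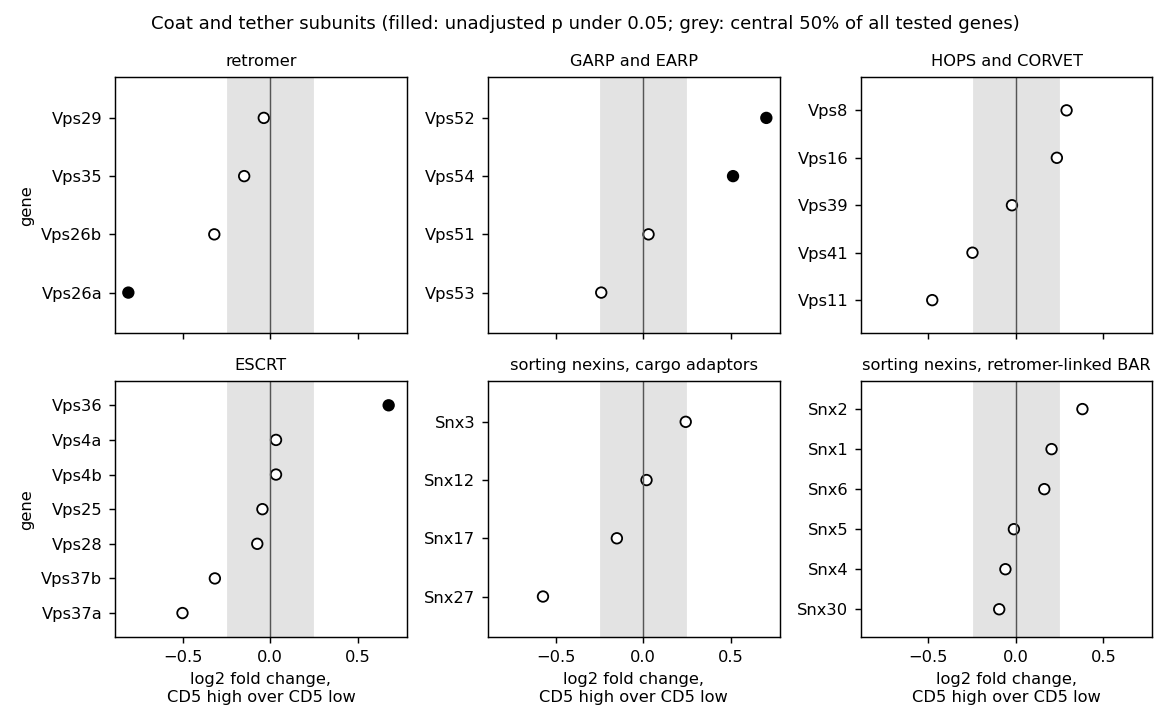
Log2 fold change, CD5 high over CD5 low, of the subunits of 6 traffic complexes or sorting nexin groups, with genes at an unadjusted p under 0.05 filled and the central 50% of all tested genes in grey. The 4 retromer genes lie left of 0, while Vps52 and Vps54 of GARP and Vps36 of ESCRT lie to the right at 0.70, 0.51 and 0.68.

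ESCRT genes, whose proteins sort ubiquitinated receptors into the lumen of endosomes, lay on both sides of equality. Vps36, the ubiquitin-binding subunit of ESCRT-II, had 43.7 FPKM in the CD5 low group and 69.9 FPKM in the CD5 high group (1.599-fold, p = 0.0135, q = 0.328 in the authors' deposited table), while its ESCRT-II partner Vps25 had 53.3 and 51.7 FPKM. In ESCRT-I, Vps37b had 94.3 and 75.7 FPKM and Vps37a 12.95 and 9.15 FPKM, with p-values of 0.116 and 0.114 in the authors' deposited table. The ATPases that dismantle ESCRT-III, Vps4a and Vps4b, had 23.6 and 24.1 FPKM and 33.1 and 33.9 FPKM, both with a log2 fold change of 0.03. Of the 9 Chmp genes of ESCRT-III, 4 had a higher and 5 a lower value in CD5 high, with a median log2 fold change of -0.02, or 0.092 without genes whose mean was below 20 FPKM. Chmp3 had 24.7 and 17.1 FPKM (p = 0.0588 in the authors' deposited table), Chmp2b 12.8 and 8.61 FPKM, and the main filament subunit Chmp4b 21.5 and 24.7 FPKM. The abundant subunit Chmp5 had 34.1 and 39.4 FPKM, Chmp7, which acts at the nuclear envelope, 11.9 and 13.6 FPKM, and Chmp1a and Chmp1b 19.7 and 16.2 FPKM and 20.97 and 17.6 FPKM. Chmp6, which links ESCRT-II to the filament, had 6.86 and 9.297 FPKM and the largest positive log2 fold change of the Chmp genes, 0.44.

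HOPS and CORVET tethers, which act in fusion of endosomes and lysosomes, had the lower value in CD5 high for 3 of 5 genes, with a median log2 fold change of -0.02. Vps11, a core subunit of both, had 19.8 and 14.2 FPKM (p = 0.0915 in the authors' deposited table), Vps16 31.3 and 36.8 FPKM, Vps41 20.4 and 17.2 FPKM, Vps39 7.52 and 7.402 FPKM and Vps8 6.15 and 7.51 FPKM. The 4 Vps13 genes, whose proteins transfer lipids between membranes, lay closer together. Their log2 fold changes ran between -0.19 and 0.09, with Vps13a the most abundant at 24.999 and 23.9 FPKM. The lower end is that of Vps13d, which lay under the lowest tested level in CD5 high. Vps33b, which forms a separate complex with Vipas39, had 8.39 and 7.16 FPKM, Vps9d1 8.47 and 7.22 FPKM and Vps72 16.95 and 18.4 FPKM.

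Sorting nexins had no gene at an unadjusted p under 0.05. Their 15 log2 fold changes had a median of 0.02, or 0.16 without genes whose mean was below 20 FPKM, and ran from -0.57 to 0.58. The upper end is that of Snx11, which reached the lowest tested level only in CD5 high. Snx27, a cargo adaptor that works with retromer, had 17.1 FPKM in the CD5 low group and 11.5 FPKM in the CD5 high group (1.49-fold lower, p = 0.109 in the authors' deposited table). Snx3, a further retromer adaptor, had 70.1 and 82.97 FPKM and Snx17, an adaptor for integrin recycling, 25.2 and 22.7 FPKM. The BAR-domain nexins that shape tubules with retromer or in its place were near equality or higher, with Snx2 at 46.4 and 60.4 FPKM (p = 0.101 in the authors' deposited table), Snx6 at 40.6 and 45.4 FPKM, Snx1 at 11.9 and 13.7 FPKM, Snx5 at 69.7 and 69.1 FPKM and Snx4 at 18.7 and 17.96 FPKM. The leukocyte nexin Snx20, which binds the selectin ligand PSGL-1, had 27.3 and 31.6 FPKM, and Snx18 had 11.7 and 14.5 FPKM. Snx22 had 50.3 and 46.7 FPKM, Snx12 15.7 and 15.9 FPKM, Snx30 11.3 and 10.6 FPKM and Snx25 7.499 and 7.13 FPKM, all with log2 fold changes between -0.11 and 0.02. Snx11, at 4.62 and 6.89 FPKM, was the lowest of the 121 genes in mean level.

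Among the Arf GTPases, which recruit coats, Arf5 had the highest level and the largest difference. Arf5, of the early secretory route, had 140.4 FPKM in the CD5 low group and 201 FPKM in the CD5 high group (1.43-fold, p = 0.0196, q = 0.363 in the authors' deposited table). Arf1, of Golgi coats, had 86.3 and 94.5 FPKM, Arf3 35.9 and 32.9 FPKM and Arf4 60.6 and 51.5 FPKM. Arf6, of the plasma membrane and recycling endosomes, had 22.6 and 29.5 FPKM (p = 0.1004 in the authors' deposited table).

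The Arl genes held a difference in each direction at an unadjusted p under 0.05. Arl5a, of the trans-Golgi network, had 9.13 FPKM in the CD5 low group and 16.4 FPKM in the CD5 high group (1.801-fold, p = 0.0029, q = 0.156 in the authors' deposited table), whereas its paralogs Arl5b and Arl5c had 12.8 and 10.4 FPKM and 19.1 and 20.5 FPKM. Arl4a, which brings cytohesins to the plasma membrane, had 23.8 FPKM in the CD5 low group and 16.6 FPKM in the CD5 high group (1.43-fold lower, p = 0.0435, q = 0.464 in the authors' deposited table). Its paralog Arl4c, the more abundant, was lower too, with 73.2 and 60.8 FPKM (p = 0.164 in the authors' deposited table). Arl8b, which couples lysosomes to kinesin, had 24.6 and 20.5 FPKM, and Arl1, of the trans-Golgi network, 8.68 and 13.3 FPKM. Arl3, of cilia, had 35.2 and 20.9 FPKM (p = 0.0848 in the authors' deposited table), a larger fold difference than Arl4a with a higher p. Arl14ep had 12.3 and 7.91 FPKM (p = 0.0625 in the authors' deposited table). The tubulin-folding GTPase Arl2 had 21.1 and 24.5 FPKM, its binding partner Arl2bp 20.7 and 19.04 FPKM, the cilium gene Arl13b 6.08 and 6.91 FPKM, Arl15 7.84 and 9.39 FPKM and Arl16 8.47 and 10.2 FPKM. The Arl6-interacting genes Arl6ip4, Arl6ip5 and Arl6ip6 had 53.1 and 61.4 FPKM, 68.5 and 69.5 FPKM and 9.28 and 9.07 FPKM. Of these 8 genes 6 had the higher value in CD5 high, among them Arl13b, which reached the lowest tested level only there. The 8 do not include Arl3, also of cilia, which had the lower value. All 18 genes with an Arl name together had a median log2 fold change of 0.07, or -0.12 without genes whose mean was below 20 FPKM. They include genes of interacting proteins that are not Arl GTPases, such as Arl2bp and Arl6ip1. The 8 tested Arl genes of membrane traffic had a median of -0.08.

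Paralogs were also compared with each other in fold. The names form 13 sets of 2 to 4 tested paralogs, 30 genes in all. In 2 sets all genes were higher in CD5 high, in 5 sets all were lower, and in 6 sets they lay in both directions. How often sets of unrelated genes would do so was not tested. The Arl5, Rab11 and Rab5 sets had the widest spread in log2 fold change, 1.16, 0.96 and 0.75. The Rab5 spread rests on Rab5b, which lay under the lowest tested level in CD5 high. Summed levels were less far apart, at 41.01 and 47.3 FPKM for Arl5 and 44.1 and 55.6 FPKM for Rab11. The summed Rab4 level was 53.8 and 81.9 FPKM, and the summed Vps26 level 21.7 and 14.4 FPKM. Paralogs can share reads, and the annotation names pseudogenes of Rab11b, Rab5a and Rab7, so the single levels of these genes are uncertain. Overlapping genes set a like limit. In GENCODE M21, 29 traffic genes share exonic bases with another coding gene, 6 of them on the same strand and 23 on the opposite strand. Rab4b shares 65.0% of its exonic bases with Gm21983 on the same strand, Rab43 75.4% with Gm45140 and Vps25 67.2% with Ramp2. On the opposite strand Rab24 shares 62.4% with Prelid1 (84.5 and 98.4 FPKM, CD5 low first). Snx22 shares 28.5% with Ppib (78.5 and 63.01 FPKM). Also on the opposite strand, Vps37b shares 32.9% with Hip1r (13.1 and 22.8 FPKM) and Rab6a 19.0% with Mrpl48 (37.3 and 55.9 FPKM). Vps13b shares 250 bases with Cox6c on that strand, whose level was 927 and 1138 FPKM. The values of Rab4b, Rab43, Vps25, Rab24, Snx22, Vps37b, Rab6a and Vps13b are therefore uncertain as well. Arf5 shares 313 bases with Gcc1 on the opposite strand, whose level was only 9.22 and 7.62 FPKM. Whether Gcc1 reads entered the Arf5 value was not tested.

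**Figure D5:**
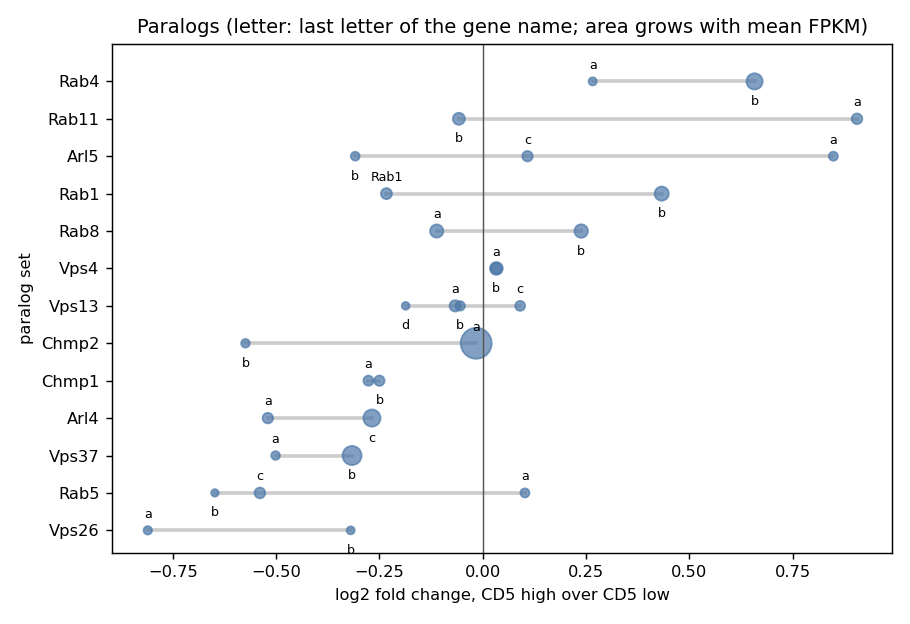
Log2 fold change, CD5 high over CD5 low, of the paralogs in 13 sets, ordered by the ratio of their summed FPKM, with the letter of each gene beside its point. Rab4 is at the top with both genes right of 0, Vps26 is at the bottom with both left of 0, and the Arl5 and Rab11 sets span the widest range.

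Regulators and partners of these proteins were counted from a list of 255 genes in 8 groups, 194 of them tested. Of these, 105 had a higher value in CD5 high, the median log2 fold change was 0.04, and 2 passed the authors' test (1.03%, against 0.758% of all tested genes). Tbc1d4, a GTPase-activating protein for Rabs and a substrate of the kinase Akt, rose 1.88-fold, its level being 39.5 FPKM in CD5 low and 74.2 in CD5 high cells (q = 0.01099 in the authors' deposited table). Lyst, a regulator of lysosome-related granules, fell 2.14-fold, its level being 15.3 FPKM in CD5 low and 7.13 in CD5 high cells (q = 0.01099 in the authors' deposited table). At an unadjusted p under 0.05 there were 6 higher partners (3.09%, against 5.58% of all tested genes) and 8 lower ones (4.12%, against 4.70%), so the shares were below or near those of the whole table.

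Other partners with an unadjusted p under 0.01 included Sytl1 and Ap3s1, both with the higher value in CD5 high. Sytl1, an effector of Rab27, had 9.04 and 19.2 FPKM (p = 0.0081, q = 0.253 in the authors' deposited table), and Ap3s1, a subunit of the adaptor AP-3 of lysosomal sorting, 17.2 and 33.4 FPKM (p = 0.00735, q = 0.238 in the same table). Clathrin and adaptor genes were higher in CD5 high for 20 of 29, with a median log2 fold change of 0.14 and the light chain gene Clta the most abundant at 118 and 155 FPKM. The other light chain gene, Cltb, named after its values were seen, had 15.2 and 7.36 FPKM (p = 0.0345 in the authors' deposited table), the lowest fold change of the group. Retromer, WASH and CCC partners were lower for 10 of 16, with a median of -0.12. The groups of ESCRT partners, Arf regulators, coatomer and COPII genes, exocyst and other tethers, and Rab regulators had medians between 0.02 and 0.10. The most abundant partner was Rabac1, a Rab acceptor of Golgi membranes, with 480.2 and 446 FPKM. In the remaining groups the most abundant were the SNARE gene Use1 with 291 and 257 FPKM, Commd4 of the CCC complex with 141 and 120.1 FPKM, the Arf regulator Acap1 with 99.9 and 94.5 FPKM, the coatomer gene Cope with 73.5 and 96.6 FPKM, the Golgi tether gene Cog5 with 85.8 and 71.8 FPKM and the ESCRT partner Pdcd6 with 60.4 and 51.7 FPKM.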

How the data were processed

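Libraries of sorted islet effector T cells (CD5 high and CD5 low, 2 each) were made by cell lysis in Triton X-100, reverse transcription, cDNA amplification and Nextera XT tagging, per the labels' protocols. The Nextera XT kit does not mark strand. TopHat 1.0.0, Cufflinks and build mm10 are named in the submitters' processing notes. The authors deposited 1 table of 7404 rows with an FPKM value per group that combines the libraries. The same table holds the authors' log2 fold change (CD5 high over CD5 low), a test statistic, which is a score without fixed range, and the authors' p-value and q-value. No per-library value was analysed here, so no fit across libraries was run, the depth is unknown, and all calls are those of the authors' deposited test. Rows with test status OK (7252) were kept, and 152 rows marked as low data were left out. Symbols were matched by pattern. FPKM values were summed, and medians, counts and folds were computed with Python 3.11.15 and pandas 2.3.3, and figures drawn with matplotlib 3.10.9. Fold changes carry no pseudocount. The members and lists were chosen with earlier results of these data known. All traffic genes may be named; described in full are those with q or unadjusted p under 0.05, the most abundant, highest and lowest in fold of each family, and a list of well-studied genes. Partners are named at q under 0.05, at unadjusted p under 0.01, or as the most abundant of a group, and 1 partner that meets this rule is not reported here. Promoters are RefSeq's (GRCm38.p6), and overlaps are from GENCODE M21. The calculations were tested on simulated data. Alternatives were the Benjamini-Yekutieli adjustment, a q threshold of 0.1, quantile normalization, centring on the median of all genes, pseudocounts of 1 and 5 FPKM, a filter at 20 FPKM and gene lists left out. Leaving out genes that overlap other coding genes, or that lie under the lowest tested level, was chosen after seeing the data.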

Additional observations from a re-analysis of the deposited data

How the results depend on the processing

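The count of traffic genes past the threshold was 1 at q under 0.05 and under every alternative run except the Benjamini-Yekutieli adjustment, where it was 0 of 121 (adjusted p of Eea1 0.104) and 0 of all tested genes passed. Leaving out names outside membrane traffic or overlapping genes kept the authors' q-values and left Eea1 in, and a q threshold of 0.1 is looser. These alternatives could therefore not lower the count. Readjusted without genes under a mean of 20 FPKM or without the marker genes, the adjusted p of Eea1 was 0.00712 and 0.0125. With genes under 20 FPKM left out, 56 traffic genes stayed. Of these, 34 had the higher value in CD5 high and 8 had an unadjusted p under 0.05. Fewer genes were counted by construction. Shares and medians over all tested genes were not computed under this filter. The filtered counts and medians of the traffic genes therefore have no background to be set against. The median log2 fold change of the group lay between 0.03 and 0.14 over the alternatives. Of 47 family medians recomputed, 5 moved by over 0.1 and 3 took the other sign. With genes under 20 FPKM left out the medians were 0.16 for Snx, -0.12 for Arl, 0.092 for Chmp and 0.03 for Vps. With genes overlapping another coding gene left out, an alternative chosen after seeing the data, they were 0.20 for Snx and 0.0041 for Arf, the latter over 2 genes, and the cause was not tested. Under quantile normalization the 13 genes with an unadjusted p under 0.05 kept their direction, and a pseudocount cannot change it. Quantile normalization left the median of all genes at -0.01.

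No paired analysis was possible because each group has 1 combined value per gene, so the replicate block and leaving out each replicate in turn were not run. The depth of the libraries is unknown, and low values cannot be given a counting error. Both groups rest on 2 libraries of unstated separate origin. Whether libraries of the same number in the titles share an origin is not stated. Whether the authors' p-values and q-values took these numbers into account is not known.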
